A study of Mus musculus with 12 samples.

Results

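The heavy chain V segments are the immunoglobulin genes whose symbols begin with Ighv. All 185 genes of the count table with such a symbol, out of 55487 genes, were taken, whatever their level. Lymph node RNA was sequenced from mice carrying a B16F10 melanoma, a mouse melanoma line, inoculated in the tongue (T) or carrying no such tumour (NT). In each of these arms the pain-sensing (nociceptive) nerves that supply the tumour-draining lymph node were either inhibited (NDE) or left uninhibited (NC). The 4 groups, NT NC and NT NDE without tumour and T NC and T NDE with it, had 3 libraries each, described by the submitters as independent biological repeats. The labels do not give the strain, the age, the way the nerves were inhibited, what the NC mice received, the day of sampling or whether 1 library holds 1 mouse or several, so the p-values measure only the spread between these libraries. Libraries are named by group and replicate, as in T NC 2.

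Each B cell builds its heavy chain gene by joining 1 V segment to a D and a J segment, and all of its descendants keep that choice. The V segment encodes most of the antigen-binding domain of the heavy chain, and later class switching replaces the constant region behind it without changing the V segment. Plasma cells, the antibody-secreting descendants of B cells, hold far more immunoglobulin mRNA than resting B cells, so a count table of V segments weighs plasma cells heavily. In bulk RNA, more cells using a segment and more RNA per cell cannot be told apart.

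The 185 segments fell into 16 families by symbol. Of them, 113 were annotated as V genes and 70 as pseudogenes. The other 2 carried the label IG_LV_gene and are counted here with those not annotated as pseudogenes. They lay between positions 113572927 and 116010093 of chromosome 12 (mm10), 183 of them on the minus strand. In 136 segments at least 1 read was counted in some library, and 49 segments, 7 of them not pseudogenes, were listed at 0 in all 12 libraries. The count filter was passed by 92 segments, 2 of them pseudogenes, so the tests below leave out 93 members. Pseudogenes together took 0.344% of the Ighv counts.

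Library totals ran from 16862953 to 24467873 counts, and the Ighv total ran from 11849 counts in T NDE 1 to 37433 in NT NC 2. Ighv counts were 0.0655% to 0.156% of a library. The defining markers of B cells were present in every library: the 13 B cell genes summed to between 4801 and 6686 CPM (counts scaled to a common library size, corrected for composition by TMM), and none of them was below 1 CPM throughout. The 14 plasma cell genes summed to between 941.8 and 1685 CPM. Salivary gland transcripts took 4.02% of the counts in T NDE 3, 2.85% in NT NC 3 and 0.148% in NT NC 2, against at most 0.00596% in the other 9 libraries, so for comparisons with NT NC or T NDE the repertoire measures, the median fold change and the named segments are also given without these libraries, which leaves NT NC 1 as the only NT NC library. The part of this tissue in the Ighv levels was not tested.

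Segments of this locus are close copies of each other, which bears on every count below. The longest exon of each segment, which holds the coding part of the mature variable region, was taken from the GENCODE M21 transcripts (mm10). Among the 92 tested segments the median identity to the nearest other segment was 95.2% (range 74.0% to 100%), and 50 of them had a relative at 95% identity or more. A median of 77.7% of the 50-base windows of a tested segment occurred in no other Ighv exon. In 9 tested segments fewer than 50% of the windows were unique, and in 13 all were. How reads matching several segments were counted is not given in the sources used here, so levels of segments with few unique windows are uncertain.

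The last 240 bases of the exon are shown for 4 of the segments with a value far above the usual in 1 library, chosen after their values were seen, each above its nearest relative, to let a reader see how much sequence separates the counts of a pair. Each is written 5′ to 3′ along the gene, and capitals mark the bases that differ from the other member of the pair when the whole exons are aligned. The first pair is Ighv7-3 (chr12:114153180-114153419, minus strand), the most abundant segment of the study, and Ighv7-2 (chr12:113912025-113912264, minus strand), which was listed at 0 in all 12 libraries although it is not annotated as a pseudogene.
Ighv7-3: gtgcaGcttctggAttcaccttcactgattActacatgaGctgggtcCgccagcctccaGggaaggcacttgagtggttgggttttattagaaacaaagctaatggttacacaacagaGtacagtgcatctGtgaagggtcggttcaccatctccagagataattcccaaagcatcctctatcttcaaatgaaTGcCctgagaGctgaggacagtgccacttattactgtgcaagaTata
Ighv7-2: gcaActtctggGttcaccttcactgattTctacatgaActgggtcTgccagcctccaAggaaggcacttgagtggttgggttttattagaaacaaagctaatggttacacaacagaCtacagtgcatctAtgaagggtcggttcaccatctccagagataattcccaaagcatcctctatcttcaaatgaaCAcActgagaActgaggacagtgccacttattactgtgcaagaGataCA
Ighv1-53 (chr12:115158403-115158642, minus strand) held the largest share of any segment other than Ighv7-3. Its nearest relative Ighv1-72 (chr12:115757984-115758223, minus strand) differed in 9 of these bases and had the steadiest share of the tested segments.
Ighv1-53: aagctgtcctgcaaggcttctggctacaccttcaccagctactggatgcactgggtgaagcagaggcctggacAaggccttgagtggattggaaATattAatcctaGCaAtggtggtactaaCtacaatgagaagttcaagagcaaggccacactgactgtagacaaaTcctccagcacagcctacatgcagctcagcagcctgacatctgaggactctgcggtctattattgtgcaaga
Ighv1-72: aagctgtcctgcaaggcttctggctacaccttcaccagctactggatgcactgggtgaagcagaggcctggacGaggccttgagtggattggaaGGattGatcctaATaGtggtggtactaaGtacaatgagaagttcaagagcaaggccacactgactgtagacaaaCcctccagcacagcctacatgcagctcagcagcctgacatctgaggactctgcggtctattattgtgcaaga
Ighv5-15 (chr12:113826646-113826885, minus strand) stood farthest above its usual level. Its nearest relative Ighv5-17 (chr12:113859149-113859388, minus strand) was high in the same library and in 2 others.
Ighv5-15: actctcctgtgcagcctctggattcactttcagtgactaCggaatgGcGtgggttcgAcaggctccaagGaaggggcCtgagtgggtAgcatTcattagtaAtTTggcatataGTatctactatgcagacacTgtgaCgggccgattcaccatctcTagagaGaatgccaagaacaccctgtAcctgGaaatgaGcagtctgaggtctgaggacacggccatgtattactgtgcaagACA
Ighv5-17: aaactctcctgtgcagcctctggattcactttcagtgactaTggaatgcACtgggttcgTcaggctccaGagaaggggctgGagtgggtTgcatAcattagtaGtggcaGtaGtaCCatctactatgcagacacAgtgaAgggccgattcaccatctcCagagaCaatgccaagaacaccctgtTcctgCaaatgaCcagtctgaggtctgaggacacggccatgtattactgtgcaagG
Ighv1-34 (chr12:114851190-114851429, minus strand) was high in 1 control library alone, and Ighv1-22 (chr12:114746273-114746512, minus strand) is its nearest relative.
Ighv1-34: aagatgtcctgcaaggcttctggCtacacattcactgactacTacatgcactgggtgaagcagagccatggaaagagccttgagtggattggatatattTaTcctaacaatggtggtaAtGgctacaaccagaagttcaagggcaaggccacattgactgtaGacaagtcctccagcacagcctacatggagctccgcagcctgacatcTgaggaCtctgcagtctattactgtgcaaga
Ighv1-22: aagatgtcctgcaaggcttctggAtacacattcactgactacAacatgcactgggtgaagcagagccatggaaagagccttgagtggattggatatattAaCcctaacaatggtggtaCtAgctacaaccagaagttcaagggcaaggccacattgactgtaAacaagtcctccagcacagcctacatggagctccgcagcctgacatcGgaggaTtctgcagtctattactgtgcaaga
The pairs differed in 10 to 30 bases over the whole exon, and 92.1% of the 50-base windows of Ighv7-3, 83.3% of those of Ighv5-15, 61.3% of those of Ighv1-34 and 44.5% of those of Ighv1-53 were unique. Of the 115 exons not annotated as pseudogenes 46, and of the 70 pseudogenes 18, ended in the letters TGTGCAAGA, searched on the coding strand only. These letters include the conserved cysteine codon at the start of the antigen-binding loop that the joining step completes.

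Usage was uneven. Ighv7-3 held 12.4% ± 10.9 (SD, n = 12 libraries) of the Ighv counts, more than any other segment on average. Its share was 5.80%, 26.3% and 9.60% in NT NC 1 to 3 and 8.52%, 38.4% and 5.14% in T NC 1 to 3. In NT NDE 1 to 3 it was 3.59%, 22.4% and 4.16%, and in T NDE 1 to 3 it was 7.17%, 6.75% and 11.4%. High and low libraries of Ighv7-3 occurred within each of the NT NC, T NC and NT NDE groups, and the 4 groups overlapped. In NT NC, T NC and NT NDE the highest library was replicate 2, and in T NDE it was replicate 3. The largest of these shares, 38.4% in T NC 2, had a 95% Wilson interval of 37.8% to 39.0%; such intervals cover counting error only and were far narrower than the differences between libraries.

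The next most abundant segments took a few percent each. Ighv1-26 averaged 4.81%, with a range of 2.56% to 8.74%. Ighv1-53 averaged 4.55%, but its range of 0.982% to 24.6% was set by NT NDE 3. Ighv4-1, the only member of its family not annotated as a pseudogene, averaged 4.45% (2.08% to 8.73%). Ighv5-17 averaged 3.57%, Ighv3-6 3.19%, Ighv9-3 2.96%, Ighv10-1 2.44%, Ighv1-64 2.32% and Ighv1-81 2.25%. Shares are of counts and are not divided by length. The annotated exons of the tested segments ran from 347 to 480 bases with a median of 353, and 9 of these 10 segments were also among the 10 largest per exonic length, where Ighv7-3 held 12.7%. The heat map of shares shows that bright cells are scattered over libraries rather than lined up by group.

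**Figure D1:**
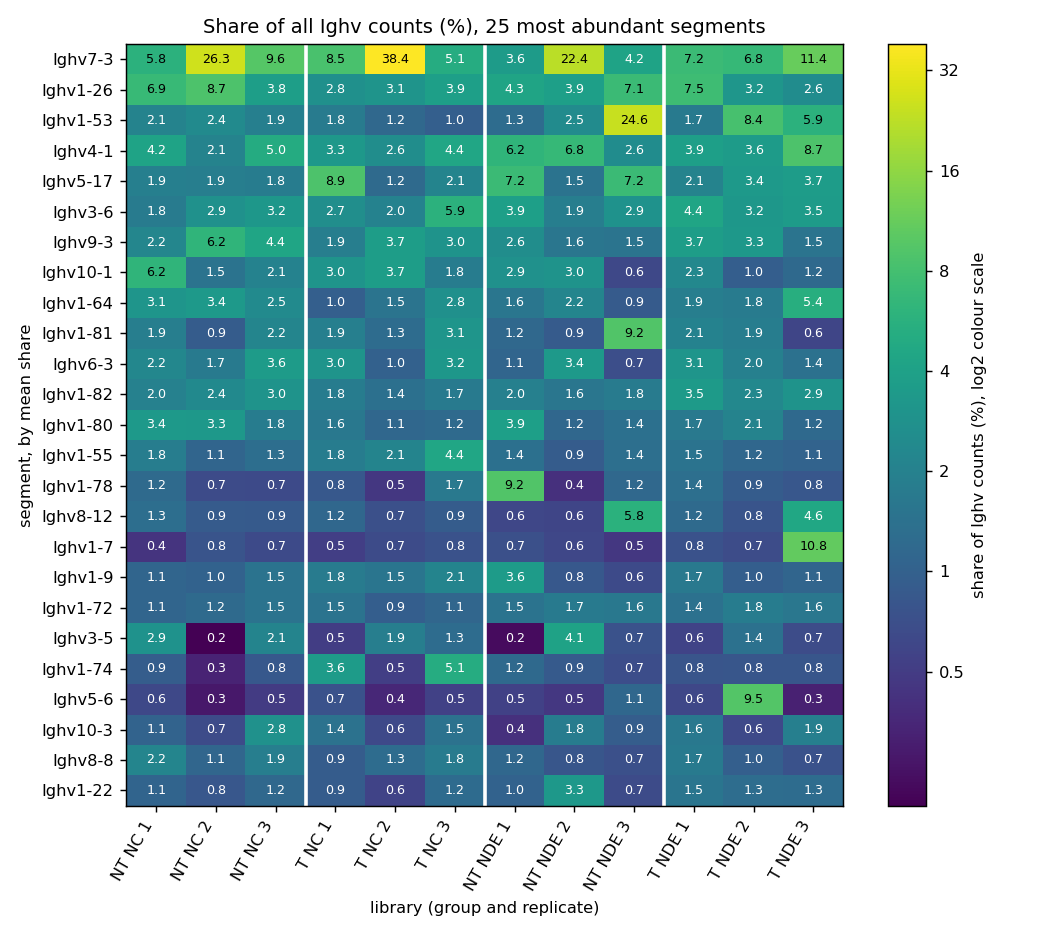
Share of all Ighv counts (%, log2 colour scale, value printed in each cell) of the 25 segments with the largest mean share, in each of the 12 libraries; white lines separate the 4 groups. Ighv7-3 reached 38.4% in T NC 2, 26.3% in NT NC 2 and 22.4% in NT NDE 2 and stayed at 11.4% or less in the other libraries, while Ighv1-72 held between 0.949% and 1.82% in every library.

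Even the steadiest of the tested segments varied by nearly 2-fold between libraries. Ighv1-72, chosen here because it had the lowest coefficient of variation among the tested segments, held 1.42% ± 0.266 (SD, n = 12). None of its 50-base windows was unique, and it is 99.0% identical to Ighv1-62-3, so this level may be shared with other segments. Ighv12-3, the largest of its family, was next with 0.134% ± 0.0337 (SD, n = 12), at 0.0930% to 0.186% in every library. Both ranges were under 2-fold.

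By family, the 93 segments of Ighv1 took 45.5% of the counts on average, from 28.8% in T NC 2 to 64.2% in NT NDE 3. Ighv7 followed with 13.0%, of which Ighv7-3 was nearly all, and ran from 3.74% to 38.7%. Ighv5, with Ighv5-17 as its largest member, averaged 9.42% and peaked at 21.6% in T NC 1. Ighv3 averaged 5.77%, Ighv4 4.48%, Ighv9 3.77% and Ighv10 3.72%. Ighv6 (largest member Ighv6-3, 2.21%), Ighv14 (Ighv14-3, 1.05%), Ighv8 (Ighv8-12, 1.62%) and Ighv2 (Ighv2-9-1, 0.747%) averaged between 3.07% and 3.45%. Ighv11 (Ighv11-2), Ighv13 (Ighv13-2), Ighv12 (Ighv12-3) and Ighv15 (Ighv15-2) stayed at a mean of 0.908% or less. Ighv16-1, the only member of its family, was listed at 0. The family peaks in T NC 1, T NC 2 and NT NDE 3 came from the single segments described next.

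The V segments lie in a row on chromosome 12, and the end nearest the D segments is the one with the lowest coordinates. In windows of 500 kb from that end, the mean shares were 21.2%, 32.6%, 14.8%, 14.4% and 17.1%, with 17 to 30 segments not annotated as pseudogenes in each window. Ighv7-3, which lies in the second window, accounts for 12.4 of its 32.6 percentage points. Counts therefore came from the whole length of the locus.

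Many segments were far above their usual share in a single library. A segment was counted when its highest share in any library was at least 1% of the Ighv counts and at least 4 times its median share in the other 11 libraries, and only that highest library was counted. By this rule 29 segments had an excess, 1 library each, and every library had at least 1. The number per library was 2, 1 and 1 in NT NC 1 to 3, 4, 1 and 2 in T NC 1 to 3, 4, 3 and 4 in NT NDE 1 to 3 and 1, 4 and 2 in T NDE 1 to 3. Together the excess segments took from 1.72% of the Ighv counts in T NDE 1 to 41.1% in NT NDE 3. In 6 of the 29 segments another library was past the same limits and is not in these numbers: Ighv1-53 in T NDE 2, Ighv8-12 and Ighv5-9-1 in T NDE 3, Ighv1-74 in T NC 1, Ighv3-8 in NT NDE 2 and Ighv7-1 in T NDE 1. The excess segments took 9.42% to 38.4% of the Ighv counts in T NC and 2.02% to 8.27% in NT NC, which do not overlap, and NT NDE had 3 to 4 of them per library against 1 to 2 in NT NC. With every library past the limits counted, 35 pairs in all, both stayed apart, and NT NDE (9.24% to 41.1%) also lay above NT NC in the share taken. Both versions keep the 4-fold limit. Ighv7-3 in NT NC 2, at 26.3% and 3.67 times its median elsewhere, fell just under it and was not counted. That share alone is above the low ends of T NC and NT NDE, so the separation in the share taken depends on the limit. The separation in number depends on it too. At 8 times the median, NT NDE 1 to 3 kept only Ighv1-78, Ighv3-1 and Ighv1-53, in that order. NT NC 1 kept Ighv1-34, so the numbers overlapped. The excess segments of T NC 2 (5.36-fold) and T NC 3 (6.34-fold and 6.67-fold) fell under that limit. These libraries then had a smaller share in excess segments than NT NC 1. NT NC 2 and NT NC 3 are salivary libraries. The 29 values describe the libraries they were picked from, and neither they nor these group ranges carry a test.

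The largest excess was that of Ighv7-3 in T NC 2, where 10325 of 26868 Ighv counts were its own, against a median of 7.17% in the other 11 libraries. Ighv1-53 in NT NDE 3 came next, with 24.6% (95% Wilson interval 24.1% to 25.1%) against a median of 1.90%; it was also at 8.38% in T NDE 2 and 5.88% in T NDE 3. Ighv1-7 held 10.8% in T NDE 3 (10.4% to 11.2%) and no more than 0.780% in any other library. T NDE 3 held Ighv7-3, at 11.4%, slightly above Ighv1-7.

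Ighv5-6 reached 9.48% in T NDE 2 (median elsewhere 0.546%), and Ighv1-78 reached 9.24% in NT NDE 1 (median elsewhere 0.842%). Ighv1-81, at 9.20%, was a further excess of NT NDE 3, beside Ighv1-53 and Ighv8-12 at 5.77%. Ighv8-12 was also high, at 4.55%, in T NDE 3. Ighv6-6 was the single excess of NT NC 2, at 5.78%. That library also held Ighv7-3 at 26.3%, which was 3.67 times the median of the other 11 libraries and so under the fold limit.

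T NC 1 held a pair of excesses from the same family, Ighv5-17 at 8.91% and Ighv5-15 at 8.74%. Ighv5-15 had a median of 0.0832% in the other 11 libraries, so its excess was 105-fold, the largest of the 29. In counts, it had 2970 in T NC 1 and between 4 and 74 elsewhere. Ighv5-17 was at 7.22% in NT NDE 1 and 7.19% in NT NDE 3 as well, and in those libraries Ighv5-15 was at 0.136% and 0.0646%. Reads of Ighv5-17 at that level were therefore not accompanied by a high count of its relative.

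Ighv1-74 reached 5.12% in T NC 3 and 3.59% in T NC 1, and was between 0.334% and 1.202% in the other 10 libraries. Ighv14-4 was at 4.63% in NT NDE 1 and at most 0.963% elsewhere. Ighv14-2 was at 4.29% in T NC 3, and Ighv3-5 at 4.10% in NT NDE 2. Ighv1-34 held 4.31% in NT NC 1 (95% Wilson interval 3.96% to 4.68%), a 42.9-fold excess over a median of 0.1005%, with 531 counts there and 8 to 50 in each other library. Controls without tumour and without nerve inhibition therefore had such segments too.

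The other 14 excesses ran from 3.96% (Ighv14-3, NT NC 1) down to 1.06% (Ighv1-47, NT NDE 2). Among them Ighv1-37 stood at 1.23% in T NDE 2, 49.5 times its median elsewhere, but only 40.6% of its windows were unique. Just inside the fold limit were Ighv5-17 (4.27-fold) and Ighv1-42 (4.43-fold), and just outside it Ighv1-15 (3.89-fold) and Ighv2-5 (3.64-fold). Just outside the share limit was Ighv2-6, at 0.984% in NT NDE 1.

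**Figure D2:**
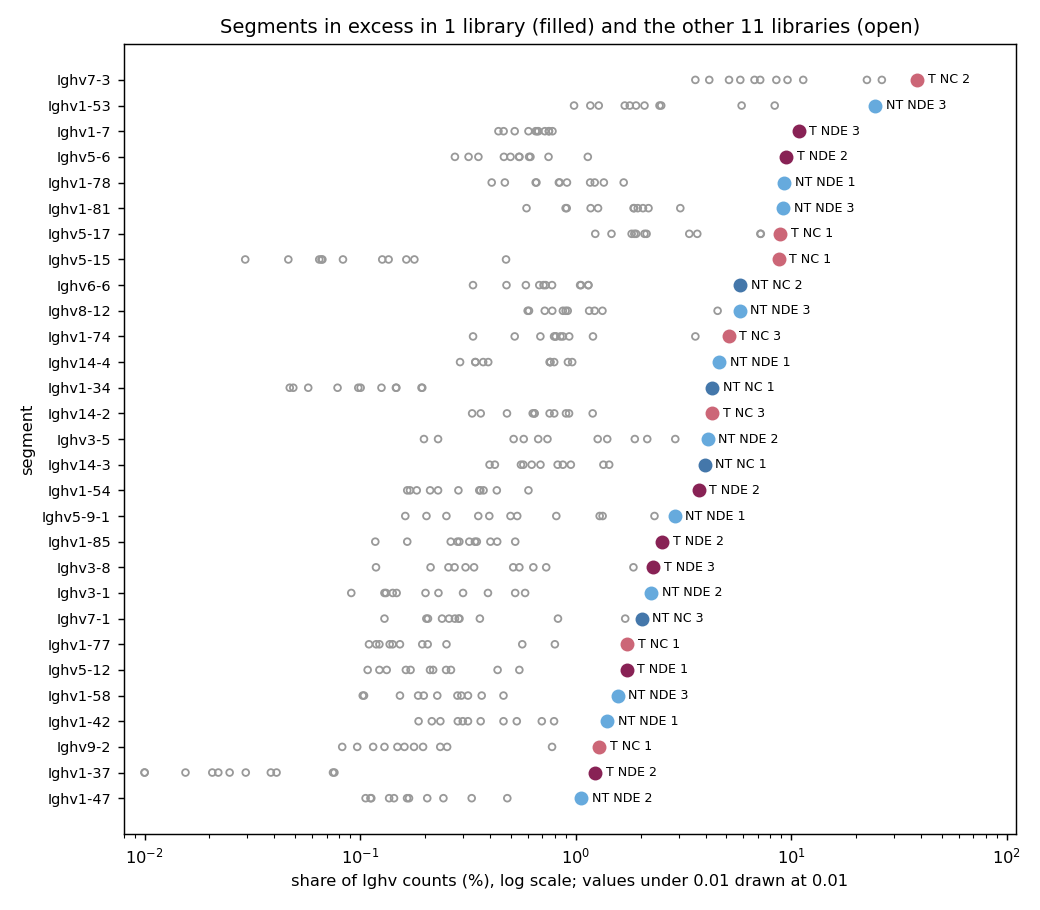
Share of the Ighv counts (%, log axis; shares under 0.01% are drawn at 0.01%) of the 29 segments with a single-library excess. The filled point is the highest library, coloured by group and named, and the 11 open points are the other libraries; Ighv5-15, Ighv1-34 and Ighv1-37 stand farthest to the right of their other points, at 105, 42.9 and 49.5 times their median.

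The same description of related families gave these values, with no test of the differences between families. By CPM, the highest library was at least 4 times the median of the other 11 in 39 of the 92 tested Ighv segments (42.4%), in 33 of 92 tested kappa light chain V segments (Igkv, 35.9%) and in 1 of 70 tested T cell receptor alpha and beta V segments (Trav and Trbv, 1.43%). Over all 17301 genes tested the share was 1.72%. The reverse pattern, a lowest library at least 4 times below the median of the others, was found in 6 Ighv segments, 9 Igkv segments and 6 Trav or Trbv segments, against 3.29% of all genes. The median biological coefficient of variation fitted by edgeR, a measure of the spread within groups, was 0.478 for Ighv, 0.446 for Igkv, 0.240 for Trav and Trbv and 0.124 for all genes.

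On the share scale 29 Ighv, 22 Igkv, 6 Trav and 0 Trbv segments had an excess. The Trav segments took only 49.1 to 70.5 CPM in all, so their shares rest on few counts, whereas Ighv took 649.4 to 1559 CPM and Igkv 764.3 to 1700 CPM. The share of the profile that 2 libraries had in common was a median of 62.5% for the 12 pairs of Ighv libraries within a group and 63.1% for the 54 pairs between groups. For Igkv it was 65.9% and 69.4%, and for the pooled Trav and Trbv segments 90.4% and 89.3%. For Ighv the median within groups was thus close to that between groups, and without the excess segments the Ighv medians were 74.8% and 74.4%.

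The large segments stood beside particular constant region and light chain genes in the same libraries. Levels below are CPM not divided by length, so they are compared between libraries and not between genes; the light chain V genes were chosen after their values were seen. In T NC 2, where Ighv7-3 was at 476 CPM, Igha, the constant region of IgA, was at 945 CPM against 34.4 to 304.7 CPM in the other libraries. The lambda light chain genes Iglc1 and Iglv1 were at 219 and 459 CPM there, against 28.0 to 72.7 and 72.3 to 210.6 CPM elsewhere. In NT NC 2, where Ighv7-3 was at 409.9 CPM, Igha was at 80.4 and Iglc1 at 37.7 CPM, while Ighm, the constant region of IgM, was at 4215 CPM, its highest level. Iglv1 was at 183 CPM there. In NT NDE 2, with Ighv7-3 at 233 CPM, Igha was at 59.3 and Ighm at 3358 CPM, and Iglv1, at 211 CPM, was second only to T NC 2. The 3 libraries with most Ighv7-3 therefore did not share a high Igha or Iglc1, while Iglv1 was among the 4 highest of the 12 in each of them.

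In NT NDE 3, Ighv1-53 was at 359 CPM against 9.05 to 86.7 CPM elsewhere. Ighg1 and Ighg2b, constant regions of IgG subclasses, were at 879 and 1143 CPM there, and Igkv17-127 was at 296 CPM against at most 84.8 CPM elsewhere. The next highest levels of Ighv1-53, 86.7 (T NDE 2) and 68.7 CPM (T NDE 3), were in the libraries with the next highest Ighg1, at 824 and 701 CPM. Igkv17-127 was at 84.8 and 47.9 CPM in them, its next highest levels. Ighg2b did not follow this order. It was at 307 and 495 CPM in T NDE 2 and T NDE 3, below the 821 CPM of NT NC 2 and the 555 CPM of T NC 1. Ighv1-53 was at 38.1 CPM in NT NC 2 and 24.7 CPM in T NC 1.

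In T NC 1, Ighv5-15 was at 121 CPM against 0.202 to 4.38 CPM elsewhere and Ighv5-17 at 124 CPM. Ighg2c, another IgG constant region, had its highest level there, 634 CPM, and Igkv12-46 was at 283 CPM. Igkv12-46 was at 245 CPM in NT NC 2 and at 8.501 to 16.9 CPM in the other 10 libraries, and Ighv5-15 was at 1.04 CPM in NT NC 2. In T NDE 2, where Ighv5-6 was at 98.1 CPM, Igkv15-103 was at 125 CPM against 6.59 to 32.8 CPM elsewhere. In T NDE 3, where Ighv1-7 was at 126 CPM, Igkv6-15 was at 159 CPM, and it was at 154 CPM in NT NC 2, where Ighv1-7 was at 12.2 CPM. Whether these transcripts came from the same cells was not tested, since bulk RNA does not pair them.

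**Figure D3:**
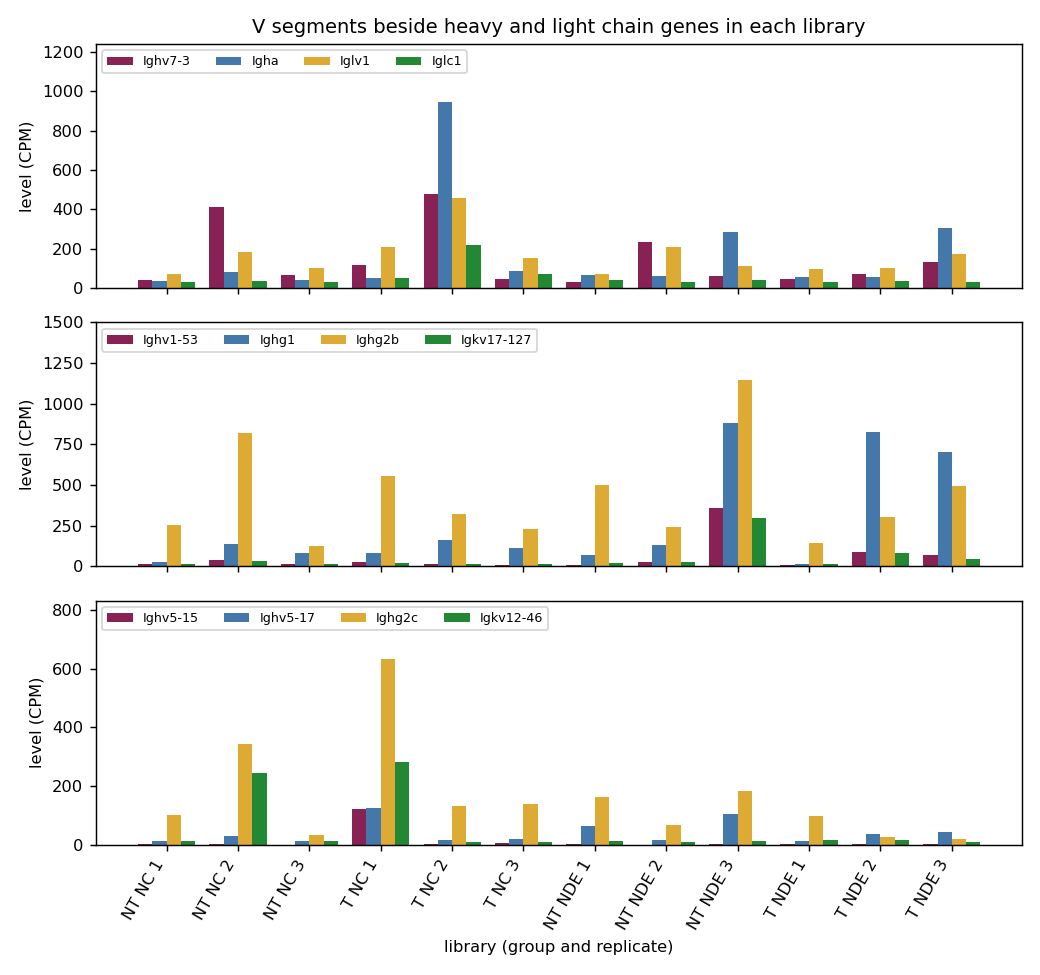
Levels (CPM, bars, 1 per gene and library) of the V segments Ighv7-3, Ighv1-53, Ighv5-15 and Ighv5-17 beside constant region and light chain genes in the 12 libraries. Ighv7-3, Igha, Iglv1 and Iglc1 were all at their highest in T NC 2, Ighv1-53, Ighg1, Ighg2b and Igkv17-127 in NT NDE 3, and Ighv5-15, Ighv5-17, Ighg2c and Igkv12-46 in T NC 1.

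The whole Ighv repertoire was described by its summed level, its effective number of segments (the exponential of the Shannon entropy of the shares, which is the number of equally used segments with the same entropy) and its largest share. The summed level was 693, 1559 and 689 CPM in NT NC 1 to 3, 1388, 1240 and 921 CPM in T NC 1 to 3, 881, 1038 and 1463 CPM in NT NDE 1 to 3 and 649, 1035 and 1168 CPM in T NDE 1 to 3. Effective numbers were 52.8, 28.0 and 55.8 (NT NC 1 to 3), 48.6, 22.3 and 54.3 (T NC 1 to 3), 46.2, 36.4 and 26.5 (NT NDE 1 to 3) and 56.1, 46.5 and 34.9 (T NDE 1 to 3). The lowest value of each group, in this order, was 28.0, 22.3, 26.5 and 34.9. Between 112 and 123 segments were detected in each library, so the differences lay in how evenly the segments were used and not in how many were seen.

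The largest share belonged to Ighv7-3 in 5 libraries and to Ighv1-26 in 2. Ighv5-17, Ighv3-6, Ighv1-78, Ighv1-53 and Ighv5-6 led in 1 library each. It ran from 5.90% (Ighv3-6, T NC 3) to 38.4% (Ighv7-3, T NC 2). In T NDE the 3 largest shares were 7.503%, 9.48% and 11.4%, and in NT NDE they were 9.24%, 22.4% and 24.6%.

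**Figure D4:**
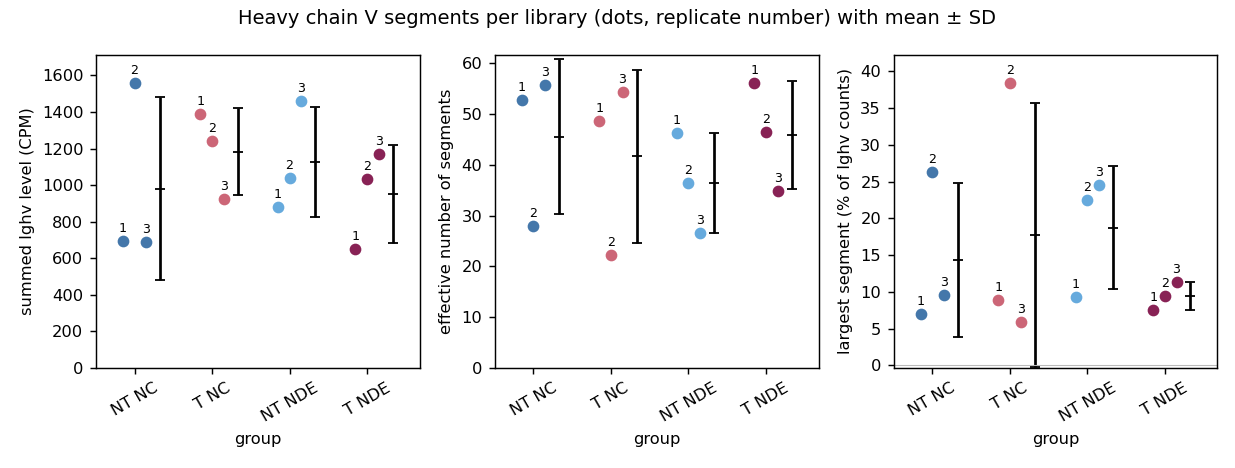
Summed Ighv level (CPM), effective number of segments and share of the largest segment (% of Ighv counts) in each library (dots, numbered by replicate) with the mean ± SD of each group of 3 beside them. With all 12 libraries the groups overlap in all 3 measures, and T NC 2 has both the lowest effective number, 22.3, and the largest share, 38.4%.

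With all libraries, the groups overlapped in these 3 measures in each of the 4 comparisons. With tumour and without nerve inhibition (T NC against NT NC), the mean log2 level was 0.36 higher in T NC against a pooled SD of 0.53, the effective number differed by -3.82 (pooled SD 16.2) and the largest share by 3.46 percentage points (pooled SD 14.7). With nerve inhibition in tumour-bearing mice (T NDE against T NC), these differences were -0.34 (0.38), 4.15 (14.2) and -8.30 (12.8). Without tumour (NT NDE against NT NC) they were 0.28 (0.55), -9.16 (12.9) and 4.46 (9.46). All 9 were smaller than the pooled SD between libraries of a group.

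For tumour under nerve inhibition (T NDE against NT NDE) the differences were -0.26 (0.41), 9.49 (10.2) and -9.30 (6.03). This last difference in the largest share exceeded 1 pooled SD, but the groups overlapped. Single libraries set the direction of 4 of these differences. Without T NC 2, the effective number differed by 5.89 and the largest share by -6.88 percentage points between T NC and NT NC, and by -5.56 and 2.04 in T NDE against T NC. The effective number also changed sign without NT NC 3 (1.33, T NC against NT NC) and without T NDE 1 (-0.98, T NDE against T NC), and the largest share without NT NC 1 (-0.21, T NC against NT NC). The difference in the log2 summed level kept its sign with each library left out but moved widely. It ran from 0.17 (without NT NC 3) to 0.76 (without NT NC 2) in T NC against NT NC and from -0.51 (without T NDE 3) to -0.085 (without T NDE 1) in T NDE against T NC. It ran from 0.078 (without NT NDE 3) to 0.67 (without NT NC 2) in NT NDE against NT NC and from -0.43 (without T NDE 3) to -0.0029 (without T NDE 1) in T NDE against NT NDE.

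Without the 3 salivary libraries, where NT NC is the single library NT NC 1, the effective number differed by -11.1, 9.62, -16.4 and 14.95 in the 4 comparisons in the order above, the summed log2 level by 0.75, -0.51, 0.67 and -0.43 and the largest share by 10.8, -9.26, 11.8 and -10.3 percentage points. The groups then no longer overlapped in 5 of these 12 cases. NT NC 1, at 693 CPM, had a lower summed level than every T NC and every NT NDE library, and against NT NDE it also had a higher effective number (52.8 against 26.5 to 46.2) and a smaller largest share (6.94% against 9.24% to 24.6%). The effective numbers of T NDE 1 and T NDE 2 (56.1 and 46.54) lay above those of NT NDE, the highest of which was 46.25. These cases set 1 or 2 libraries against 3 and carry no test.

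Segment by segment, 0 of 92 Ighv segments passed an adjusted p of 0.05 in T NC against NT NC by edgeR's quasi-likelihood test, higher or lower, as did 0.0% of all 17301 genes in each direction. At an unadjusted p under 0.05, 8 Ighv segments were higher and 3 lower (4.57% and 3.23% of all genes), and DESeq2 passed 1. The share of all genes that DESeq2 passed is not given here, so its counts in this and the later comparisons have no background. The median log2 fold change was 0.30 over the 92 segments and -0.01 over all genes, with 58 segments higher in T NC; without the salivary libraries the segment median was 0.73. The 12 germinal centre B cell genes, which mark dividing B cells under selection, had a median of 0.33 in the same comparison, with 11 of 12 higher and 3 at an unadjusted p under 0.05. Their part in the Ighv levels was not tested. The CPM of the groups did not overlap in 8 segments higher and 3 lower, against 7.78% and 7.23% of all genes. On the share scale, which removes the summed level, 1 segment was higher and 10 were lower. A high share of 1 segment lowers the shares of others, and this scale has no all-gene value. These counts are therefore not read as a result about the segments.

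The smallest p in this comparison was that of Ighv1-55, at 25.3, 26.3 and 40.9 CPM in T NC, while NT NC had 12.8, 17.0 and 9.08 CPM. The groups did not overlap; the log2 fold change was 1.24 (SE 0.31), with an adjusted p of 0.474 by edgeR. Ighv1-74 was at 49.8, 6.46 and 47.2 CPM in T NC 1 to 3 and between 5.20 and 6.46 CPM in NT NC, so T NC 2 was close to the control level. Its log2 fold change was 2.56 (SE 0.65, adjusted p 0.491 by edgeR); DESeq2 gave an adjusted p of 0.0156, and edgeR without T NC 2 gave 7.30e-06. Ighv5-15 had a log2 fold change of 5.69, which was 1.94 without T NC 1. Without the salivary libraries the log2 fold changes of Ighv1-55, Ighv1-74 and Ighv5-15 were 1.27, 2.42 and 5.12. Ighv1-20 was 1.76 higher on the log2 scale (2.62 without the salivary libraries), and Ighv3-4 was at -1.499 (-1.96). Both had low levels. Ighv1-20 was at 3.84, 0.830 and 4.73 CPM in T NC 1 to 3 and 0.506 to 1.33 CPM in NT NC, so the groups overlapped. Ighv3-4 was at 0.0923 to 0.355 CPM in T NC and 0.505 to 0.955 CPM in NT NC.

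In T NDE against T NC, 0 of 92 segments passed by edgeR (0.0% of all genes in each direction), and DESeq2 passed 2, Ighv9-4 and Ighv1-55. At an unadjusted p under 0.05 there were 0 higher and 14 lower (2.75% and 3.07% of all genes). The median log2 fold change was -0.40 over the segments and 0.01 over all genes, with 61 segments lower in T NDE; without the salivary libraries the segment median was -0.34. The CPM of 13 segments was lower in every T NDE library than in every T NC library, and 0 were higher, against 4.59% and 4.55% of all genes. The 13 included Ighv1-55, Ighv8-8, Ighv9-4, Ighv1-56, Ighv2-3, Ighv5-15, Ighv10-1 and Ighv14-2. Shares did not overlap in 4 segments higher and 5 lower. They sum to 100% in every library, so a rise in 1 segment lowers others, and no all-gene value stands beside these counts.

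Ighv1-55 also had the smallest p here. It was at 9.54, 11.96 and 12.3 CPM in T NDE, below the 25.3 to 40.9 CPM of T NC and near the levels of NT NC; the log2 fold change was -1.45 (SE 0.31), with an adjusted p of 0.546 by edgeR and 0.0190 by DESeq2. Ighv9-4 was at 1.15, 1.47 and 1.11 CPM in T NDE, while T NC had 5.52, 4.98 and 4.14 CPM. Its log2 fold change was -1.97 (SE 0.50, adjusted p 0.607 by edgeR and 0.0215 by DESeq2). Ighv8-8 was at 11.3, 10.03 and 8.74 CPM in T NDE, while T NC had 12.7, 15.8 and 16.4 CPM (-0.58 on the log2 scale). Ighv1-56 and Ighv2-3 had log2 fold changes of -3.26 and -1.41, the first at 2.49 CPM or less in every library and at -2.01 without T NC 1. Without the salivary library T NDE 3 and those of NT NC, the log2 fold changes of Ighv1-55, Ighv9-4, Ighv8-8, Ighv1-56 and Ighv2-3 were -1.51, -1.89, -0.49, -3.43 and -1.21. Both comparisons use the T NC libraries, so the values of Ighv1-55 in them are not independent.

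In NT NDE against NT NC, 0 of 92 segments passed by edgeR (0.0% of all genes in each direction), and DESeq2 passed 2, Ighv1-34 and Ighv8-8. At an unadjusted p under 0.05, 5 were higher and 6 lower (5.64% and 4.71% of all genes). The median log2 fold change was -0.03 over the segments and 0.00 over all genes, with 45 segments higher; without the salivary libraries the segment median was 0.46. CPM did not overlap in 4 segments higher and 3 lower, against 9.7% and 9.18% of all genes. Shares did not overlap in 1 higher and 11 lower, with no all-gene value on that scale and the same limit as above.

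Ighv8-8 had the smallest p and the smallest spread of the named segments. It was at 10.2, 8.36 and 10.5 CPM in NT NDE and 15.2, 17.7 and 13.1 CPM in NT NC, and the groups did not overlap. Its log2 fold change was -0.66 (SE 0.15), with an adjusted p of 0.183 by edgeR, 0.0443 by edgeR with no filter on low counts and 0.0124 by DESeq2. Without the salivary libraries it was -0.65 (adjusted p 0.304 by edgeR). Ighv2-6 was at 8.67, 2.95 and 5.25 CPM against 1.29, 2.96 and 1.61 CPM, a log2 fold change of 1.51 with overlapping groups (2.12 without the salivary libraries). Ighv1-34 had a log2 fold change of -3.83 with NT NC 1, at 29.8 CPM, and of -0.97 without it. It passed by edgeR only when NT NC was reduced to that library by leaving out the salivary libraries (-5.29, adjusted p 3.02e-05), so its call rests on NT NC 1. Ighv1-58, at 22.9 CPM in NT NDE 3, was 2.12 higher on the log2 scale and 0.10 without that library. Ighv2-9-1 was 1.17 higher, and 0.74 without NT NDE 2. Without the salivary libraries the values of Ighv1-58 and Ighv2-9-1 were 2.06 and 1.68.

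In T NDE against NT NDE, 0 of 92 segments passed by edgeR, where 0.0% of all genes passed higher and 0.00578%, a single gene, lower; DESeq2 passed 0 Ighv segments. At an unadjusted p under 0.05, 3 were higher and 9 lower (1.66% and 2.05% of all genes). The median log2 fold change was -0.19 over the segments (-0.17 without the salivary library T NDE 3 and those of NT NC) and 0.00 over all genes. CPM did not overlap in 3 segments higher and 4 lower, against 4.1% and 4.33% of all genes. Ighv2-6 was at 1.64, 1.93 and 1.74 CPM in T NDE, all below the NT NDE values given above, with a log2 fold change of -1.66 (SE 0.50, unadjusted p 0.00614 by edgeR). Ighv1-58, Ighv1-63 and Ighv2-3 had log2 fold changes of -2.66, -1.23 and -1.11, each of which rested in large part on 1 NT NDE library: they were -0.64 without NT NDE 3, -0.74 without NT NDE 1 and -0.64 without NT NDE 2. Ighv1-54 was 2.74 higher on the log2 scale, and 0.13 without T NDE 2, where it was at 38.5 CPM against 1.77 to 5.56 CPM elsewhere. Without the salivary libraries the log2 fold changes of Ighv2-6, Ighv1-58, Ighv1-63, Ighv2-3 and Ighv1-54 were -1.64, -2.84, -1.15, -0.90 and 3.27.

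The interaction of tumour and nerve inhibition, which asks whether the tumour difference changed with nerve inhibition, was passed by 0 of 92 segments by edgeR (0.0% of all genes in each direction) and 0 by DESeq2. At an unadjusted p under 0.05, 0 were higher and 11 lower (3.16% and 3.95% of all genes). The median over the segments was -0.30 (-0.78 without the salivary libraries) and over all genes 0.01. Ighv1-55 had the smallest p, with an interaction of -1.54 on the log2 scale (SE 0.44, adjusted p 0.622 by edgeR). Ighv2-6, Ighv1-74, Ighv2-3 and Ighv1-58 followed with -2.23, -2.93, -1.60 and -3.40; that of Ighv1-58 was -1.40 without NT NDE 3. Without the salivary libraries the interactions of Ighv1-55, Ighv2-6, Ighv1-74, Ighv2-3 and Ighv1-58 were -1.63, -2.83, -2.96, -1.98 and -3.53.

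**Figure D5:**
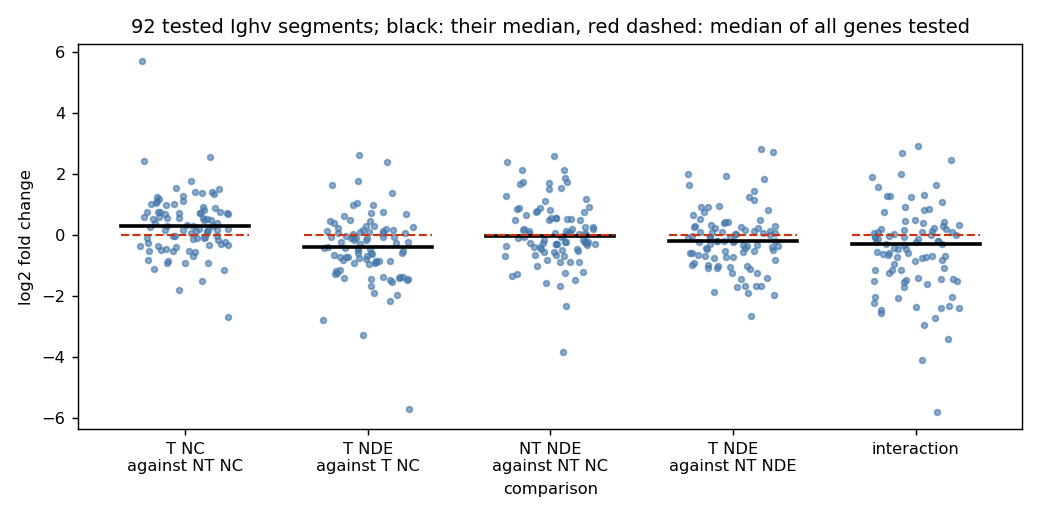
Log2 fold changes (edgeR) of the 92 tested Ighv segments in the 4 comparisons and the interaction, 1 dot per segment with sideways scatter for legibility; black lines are the segment medians and red dashed lines the medians of all 17301 genes tested. The segment medians were 0.30, -0.40, -0.03, -0.19 and -0.30, and the point near 5.69 in the first comparison is Ighv5-15.

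The other genes of the pathway were counted in the same fits. None of the 8 heavy chain constant genes, 4 joining segments, 4 light chain constant genes and 17 tested genes of recombination, class switching and hypermutation passed by edgeR in any comparison. Of these 33 genes, 3 were higher and 3 lower at an unadjusted p under 0.05 in T NC against NT NC, 0 and 3 in T NDE against T NC, 0 and 1 in NT NDE against NT NC, 0 and 0 in T NDE against NT NDE and 1 and 1 in the interaction; DESeq2 passed 1, Iglc1 in T NC against NT NC, and 0 in the others. The shares of all genes at an unadjusted p under 0.05 are given with each comparison above. The list medians of the log2 fold change in T NC against NT NC were 0.21 for the heavy chain constant genes, -0.12 for the joining segments, 0.18 for the light chain constant genes and 0.05 for the recombination list. In T NDE against T NC the medians were -0.17, 0.19, -0.13 and -0.04. Jchain, which links secreted IgM and IgA, had CPM of 215, 662 and 228 (NT NC), 493, 507 and 321 (T NC), 243, 317 and 526 (NT NDE) and 163, 332 and 419 (T NDE). The libraries with the highest and the lowest Jchain, NT NC 2 and T NDE 1, were also those with the highest and the lowest summed Ighv level.

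The 50 B cell, plasma cell, germinal centre and T cell marker genes had 0 passing by edgeR and 0 by DESeq2 in each comparison. At an unadjusted p under 0.05, 3 were higher and 0 lower in T NC against NT NC, 1 and 8 in T NDE against T NC, 3 and 2 in NT NDE against NT NC, 0 and 0 in T NDE against NT NDE and 0 and 1 in the interaction. The 8 lower ones in T NDE against T NC, where 3.07% of all genes were lower at that p, included 7 of the 11 T cell genes. The shares of all genes in the other comparisons are those given with each of them above. No value without the salivary libraries is given for these marker lists. The median log2 fold changes in T NDE against T NC, where Ighv segments were at a median of -0.40, were 0.07 for the 13 B cell genes, -0.07 for the 14 plasma cell genes, 0.25 for the 12 germinal centre genes and -0.23 for the 11 T cell genes. In NT NDE against NT NC, where the Ighv median was -0.03, the germinal centre genes had a median of 0.49 with 11 of 12 higher, and in T NC against NT NC the B cell, plasma cell and T cell medians were 0.05, -0.01 and 0.10. Their part in the Ighv levels was not tested.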

How the data were processed

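Bulk RNA-seq of 12 lymph node libraries was used, 3 in each of 4 groups taken from the labels. The authors deposited 1 table of raw read counts (whole numbers) for every gene; per the submitters' processing notes HISAT2 2.0 and the mm10 build were used. How reads were assigned to genes, with which annotation and strand setting and with what treatment of multiple matches, is not given in the sources used here. The genes with symbols beginning with Ighv and the gene lists were chosen with earlier results of these data known.

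Counts of all genes were fitted with edgeR 4.0.16 (R 4.3.3): filterByExpr by group (17301 genes kept), TMM scaling, robust quasi-likelihood fit with 1 mean per group, two-sided tests, Benjamini-Hochberg adjustment over all genes, threshold 0.05. CPM are counts scaled to a common TMM-corrected library size. On simulated counts of 17301 genes for T NC against NT NC, 89% of 200 genes changed 4-fold were recovered, with 15 false calls. Those 200 were drawn at random from all genes tested, whose median biological coefficient of variation was 0.124. For Ighv segments it was 0.478, so the 89% does not apply to them, and their recovery was not simulated. Shares are of the Ighv counts of a library, with 95% Wilson intervals; summed and diversity measures carry no test. Alternatives were DESeq2 1.42.0, other normalizations and filters, fits of the compared groups only, a replicate block, thinning to 11849 Ighv counts, removal of pseudogenes, of excess segments, of salivary libraries (over 0.1% of counts from 12 salivary genes) and of each library in turn. Exon sequences and positions are from GENCODE M21. Named segments are the 10 with the largest mean share, the 15 largest single-library excesses, the 5 smallest p-values of each comparison and the largest of each family; others named were chosen after their values were seen. Gene IDs with no symbol held no more than 0.0548% of any library's counts.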

Additional observations from a re-analysis of the deposited data

How the results depend on the processing

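With edgeR, 0 Ighv segments passed in any comparison under other normalizations, the stricter filter and fits of the compared groups only. Exceptions were these. Without the salivary libraries, 1 segment passed in T NC against NT NC, 1 in NT NDE against NT NC and 1 in the interaction; it was Ighv1-34 each time (log2 values -4.13, -5.29 and 4.35, adjusted p 0.000158, 3.02e-05 and 0.0232 by edgeR), with NT NC reduced to NT NC 1 and that library assumed to vary like the other groups. Without T NC replicate 2, 1 segment passed in each of the comparisons of T NC with NT NC and of T NDE with T NC and in the interaction, Ighv1-74 (3.06, -2.67 and -3.43, adjusted p 7.30e-06, 3.31e-05 and 8.42e-05 by edgeR). DESeq2 passed 1, 2 and 2 segments in the first 3 comparisons, with no share of all genes beside them. With no filter, 1 passed in NT NDE against NT NC, Ighv8-8. The shares of all genes that passed in these alternative edgeR fits are not given here, so these counts have no background either. Leaving out each library in turn gave 0 to 1 segments in T NC against NT NC, in T NDE against T NC and in the interaction. It gave 0 in NT NDE against NT NC and in T NDE against NT NDE.

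With the replicate number as a block, 0 segments passed in each comparison, with smallest adjusted p-values of 0.555, 0.631, 0.319, 1.00 and 0.621 by edgeR. Over all genes tested, same-numbered libraries did not deviate together (correlations of -0.133 to 0.0631), so the numbers were not taken as pairs. The share of Ighv7-3 nonetheless peaked in replicate 2 of NT NC, T NC and NT NDE, though not of T NDE. T NC 2 had 72.5% of its Ighv profile in common with NT NC 2 and 69.2% with NT NDE 2. With T NC 1, T NC 3 and T NDE 2 it had 57.7%, 56.0% and 56.3%.

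The number of single-library excesses was 29, 12 at 8 times the median, 35 with every library past the limits counted, 28 without the salivary libraries and 25 to 30 with each library left out. The largest share in T NDE against NT NDE differed by -9.30 points, by -2.08 without excess segments, a reduction built in by leaving out segments chosen for a high share, and by -14.1 to -6.39 with each library left out. Leaving out each library, the effective number differed by -12.6 to 5.89 in T NC against NT NC, -5.56 to 10.4 in T NDE against T NC, -17.9 to -4.01 in NT NDE against NT NC and 4.36 to 14.95 in T NDE against NT NDE. Depth limits the segments below about 1 CPM, whose shares rest on few counts.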
